A study of Bos taurus with 20 samples.

Results

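Smooth muscle cells and pericytes, the mural cells that wrap blood vessels, share a set of contractile and cytoskeletal genes. RNA levels of 10 such genes were examined in clonal bovine mesenchymal stem cells (MSCs) from fat: the smooth muscle actins ACTA2 and ACTG2, the smooth muscle myosin heavy chain MYH11, the actin-binding proteins TAGLN, CNN1 and LMOD1, the myosin light chain kinase MYLK, the intermediate filament protein DES, and the pericyte-associated genes RGS5 and MCAM. The members were chosen by gene symbol, and each of the 10 had 1 row among 33063 named genes. Of these, 9 passed the filter on low counts and were tested among 12900 genes, and RGS5 did not pass.

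The clones were grown from single sorted cells of visceral adipose tissue of Holstein Friesian x Aberdeen Angus calves that were 1 to 6 months old. There were 10 adipogenic (A) clones, which formed fat-storing cells when induced, and 10 non-adipogenic (N) clones, which did not. Animals 17 and 20 gave 1 clone of each kind, and animals 22 and 23 gave 4 of each. All 20 clones were expanded in the same serum medium with bFGF, partly conditioned by MSCs of the same animal, and RNA was taken from aliquots that had not been induced to differentiate. Each library was 1 clone, so a value describes the progeny of 1 founder cell after culture. In such bulk RNA, fewer expressing cells and less RNA per cell cannot be told apart. Named-gene totals ran from 14908802 to 43111345 counts in N clones and from 14615493 to 29185355 in A clones, and clones are written below as animal and clone number.

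In smooth muscle cells, MYLK phosphorylates the myosin light chain, which lets myosin such as MYH11 pull on actin filaments made in part of ACTA2 and ACTG2. Transgelin (TAGLN), calponin (CNN1) and leiomodin (LMOD1) bind actin, and desmin (DES) filaments link the contractile apparatus. Many of these genes are driven by serum response factor (SRF) with its muscle-restricted cofactor myocardin (MYOCD). Cultured stromal cells and myofibroblasts also express ACTA2, TAGLN and CNN1, whereas MYH11 is found mainly in mature smooth muscle. RGS5, a regulator of G protein signalling, and MCAM, a cell adhesion molecule (CD146), are used as markers of pericytes.

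All 9 tested genes had a higher fitted level in A than in N clones, by 1.31-fold for LMOD1 to 8.23-fold for MYH11. Their median log2 fold change was 1.20, against -0.01 over all genes tested. Clones of the same kind differed widely, however, and MYH11 alone passed an adjusted p of 0.05. That was 1 of 9 members (11.1%), where 20.6% of all genes tested passed in either direction, 10.3% as higher in A and 10.3% as lower in A, and 5.76% passed with at least a 2-fold change. At an unadjusted p of 0.05, 5 of the 9 members passed (55.6%), against 36.1% of all genes tested. Another 4 members, TAGLN, CNN1, DES and ACTG2, had an adjusted p between 0.05 and 0.1. All adjusted p-values are from edgeR's quasi-likelihood test with the animal as a block and Benjamini-Hochberg adjustment over the 12900 genes, and intervals given with fold changes are 95% intervals of a single gene, not adjusted for the number of genes.

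The call count moved with 1 or 2 libraries. Of the 20 fits that left out 1 clone, 14 called no member, although 4 or 5 passed an unadjusted p of 0.05 in each, and 4 members were called without N clone 22-17 or without N clone 22-18. Without N clone 22-5, CNN1 and ACTG2 were called, and without A clone 22-121, MYH11 and CNN1. The libraries with the most counts were N clone 22-18 and A clone 23-108, and without this pair 3 members were called. N clones 22-5 and 22-9 stood apart by their mesothelial markers, whose summed level was 9198 and 6512 CPM (counts scaled to a common library size) there and at most 1095 CPM in any other clone. Without these 2 clones 1 member was called, ACTG2 in place of MYH11. With all 20 clones, DESeq2 called 5 members (MYH11, CNN1, DES, MYLK and ACTG2) and limma-voom 6 (TAGLN, MYH11, CNN1, DES, MCAM and ACTG2), where these tools called 24.2% and 21.2% of all genes they tested. The fits without 1 clone called 15.3 to 24.1% of all genes. The fit without 22-18 and 23-108 called 23% of them, and the fit without 22-5 and 22-9 called 14.2%.

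**Figure D1:**
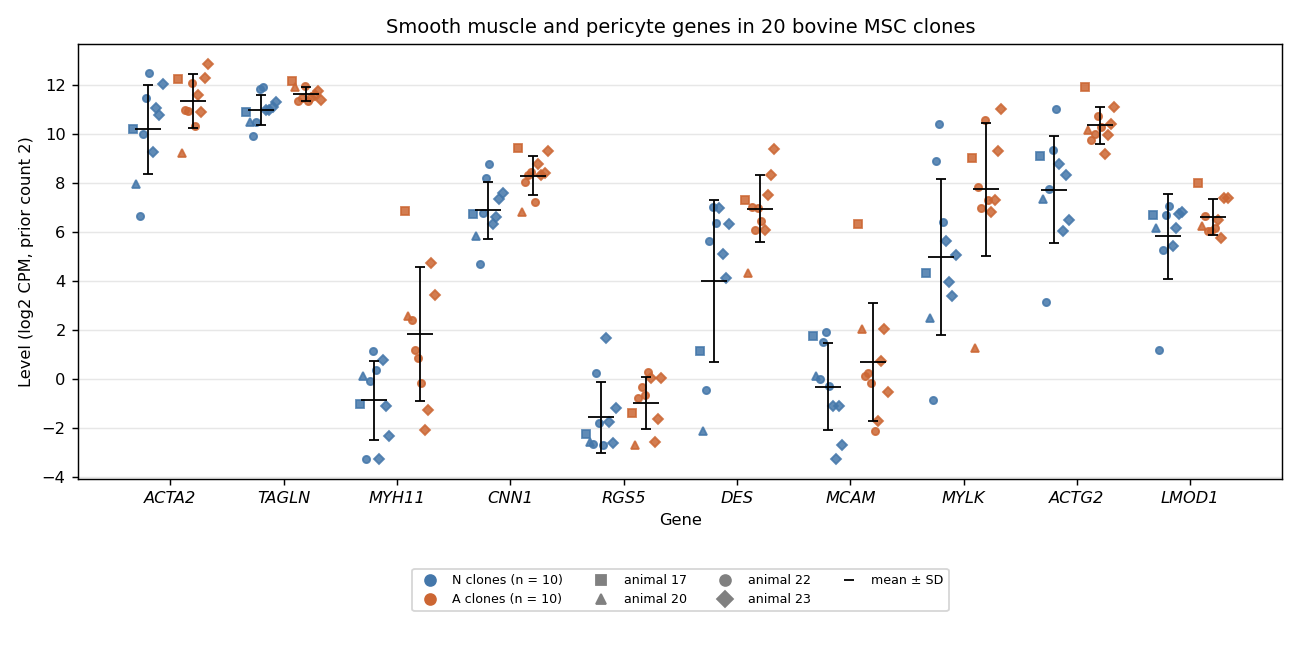
Level of each of the 10 genes (y axis, log2 CPM with a prior count of 2) in each of the 10 N clones (blue) and 10 A clones (orange), with the animal given by the symbol and the mean ± SD as black bars. No gene separates the groups completely, and N clone 22-5 is the lowest or joint lowest for 7 of the genes. Heights are comparable within a gene, not between genes, since transcript lengths were not used.

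Of the actins, ACTA2, whose product is the alpha actin of vascular smooth muscle, was abundant in both kinds of clone. The N clones ran from 99.4 CPM in 22-5 through a median of 1438 CPM to 5621 CPM in 22-18, and the A clones from 596 CPM in 20-106 through 2508 CPM to 7366 CPM in 23-108. The groups overlapped almost entirely, with 1 A clone above every N clone. The means were 1955 ± 1788 CPM in N and 3209.6 ± 2094 CPM in A (SD, n = 10 each), a log2 difference of 0.72 ± 0.53 (SE), with an adjusted p of 0.334 and an interval from -0.31 to 1.76.

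ACTG2, the gamma actin of visceral smooth muscle, differed more. It ran from 8.70 CPM in 22-5 through 267 CPM to 2055 CPM in 22-18 among the N clones, and from 574 CPM in 23-14 through 1182 CPM to 3781 CPM in 17-57 among the A clones. All 10 A clones lay above the N median, and 2 lay above every N clone. Its level was 3.62-fold higher in A (log2 1.86 ± 0.65, adjusted p = 0.0529, interval 0.57 to 3.14).

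MYH11 was scarce. It was counted at 0 in N clones 22-5 and 23-10, where 3 counts would be at most 0.216 CPM, and the N clones reached 2.11 CPM at most, with a median of 0.611 CPM. The A clones ran from 0.131 CPM in 23-14 through 3.64 CPM to 115 CPM in 17-57, and A clones 23-68 and 23-108 had 26.5 and 10.5 CPM. Of the A clones, 6 lay above all N clones, while 2 A clones lay below the N median. The means were 0.754 ± 0.717 and 16.8 ± 35.5 CPM (SD, n = 10 each), and the log2 fold change was 3.04 ± 1.05 (adjusted p = 0.0484, interval 0.99 to 5.09). The call was lost in 15 of the 20 fits that left out 1 clone, with adjusted p between 0.0540 and 0.0868, and was kept without N clone 22-17 or 22-18 or A clone 22-121, 23-14 or 23-62. Without A clone 23-68 the log2 fold change was 2.43 (5.38-fold), and without 17-57 it was 2.65. MYH11 overlaps the gene NDE1 in the RefSeq annotation. NDE1 had 60.1 CPM in clone 17-57, within its range of 20.6 to 64.9 CPM over the N clones and below the A maximum of 78.3 CPM. Whether NDE1 reads entered the MYH11 counts was not tested.

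CNN1, TAGLN and LMOD1 encode actin-binding proteins, and CNN1 had the lowest adjusted p of the 3. The N clones had from 25.8 CPM in 22-5 through 106 CPM to 428 CPM in 22-18 of CNN1, and the A clones from 110 CPM in 20-106 through 324 CPM to 679 CPM in 17-57. Every A clone was above the N median and 3 were above every N clone. The means were 154 ± 123 CPM in N and 356 ± 182 CPM in A (SD, n = 10 each), a 2.25-fold difference (log2 1.17 ± 0.41, adjusted p = 0.0521, interval 0.37 to 1.98).

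TAGLN varied least. The A clones lay between 2544 CPM in 22-11 and 4497 CPM in 17-57, with a median of 2921 CPM. The N clones lay between 956 CPM in 22-5 and 3840.4 CPM in 22-18, with a median of 1991 CPM. All 10 A clones exceeded the N median and 2 exceeded every N clone, and the difference was 1.47-fold (log2 0.55 ± 0.22, adjusted p = 0.0836, interval 0.12 to 0.99).

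LMOD1, which nucleates actin filaments, had overlapping groups whose means and medians were ordered differently. The N clones ran from 2.15 CPM in 22-5 through a median of 87.0 CPM to 133 CPM in 22-18, and the A clones from 53.7 CPM in 23-62 through 81.7 CPM to 253 CPM in 17-57. The mean was higher in A (110 ± 64.2 against 78.0 ± 40.4 CPM, SD, n = 10 each) and the median higher in N. The log2 difference of 0.39 ± 0.43 was within the spread of the clones (adjusted p = 0.544, interval -0.46 to 1.24).

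MYLK varied widely within both groups. N clones ran from 0.452 CPM in 22-5 through 26.5 CPM to 1328 CPM in 22-17, and A clones from 2.26 CPM in 20-106 through 190.4 CPM to 2024 CPM in 23-108. Of the 10 A clones 9 were above the N median, and the fitted level was 4.99-fold higher in A, but the error was large (log2 2.32 ± 1.32, adjusted p = 0.214, interval -0.27 to 4.91). It was 3.27-fold without A clone 23-108 and 7.96-fold without N clone 22-17.

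DES had 3 N clones at or under 2.07 CPM (20-15 at 0.123, 22-5 at 0.621 and 17-23 at 2.07), while the other 7 lay between 17.3 and 128 CPM. The A clones ran from 20.0 CPM in 20-106 through 127 CPM to 669 CPM in 23-108. Of the A clones, 5 were above every N clone and 9 above the N median. The fitted difference was 4.34-fold (log2 2.12 ± 0.80, adjusted p = 0.0677, interval 0.55 to 3.68).

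The pericyte-associated genes were low in most clones, and RGS5 was at the edge of detection. RGS5 had between 1 and 52 counts per clone. The N clones lay between 0.0509 CPM in 22-18 and 3.07 CPM in 23-10 with a median of 0.144 CPM, and the A clones between 0.0490 CPM in 20-106 and 1.10 CPM in 22-121 with a median of 0.498 CPM. The means were 0.519 ± 0.948 CPM in N and 0.522 ± 0.375 CPM in A (SD, n = 10 each). Fitted without the filter on low counts, where 11.8% of 23383 genes passed, its log2 difference was 0.20 ± 0.71 (adjusted p = 0.881), so a difference was not detectable at this depth.

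MCAM was low in 19 of the 20 clones. The N clones ran from 0 to 3.67 CPM with a median of 0.808 CPM, and 9 of the A clones from 0.122 to 3.97 CPM. A clone 17-57 had 80.4 CPM and set the A mean of 9.36 ± 25.0 CPM (SD, n = 10), against 1.31 ± 1.39 CPM in N. The log2 difference was 1.20 ± 0.89 (adjusted p = 0.345, interval -0.55 to 2.95), and it was 0.70 at the lowest when 1 clone was left out.

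**Figure D2:**
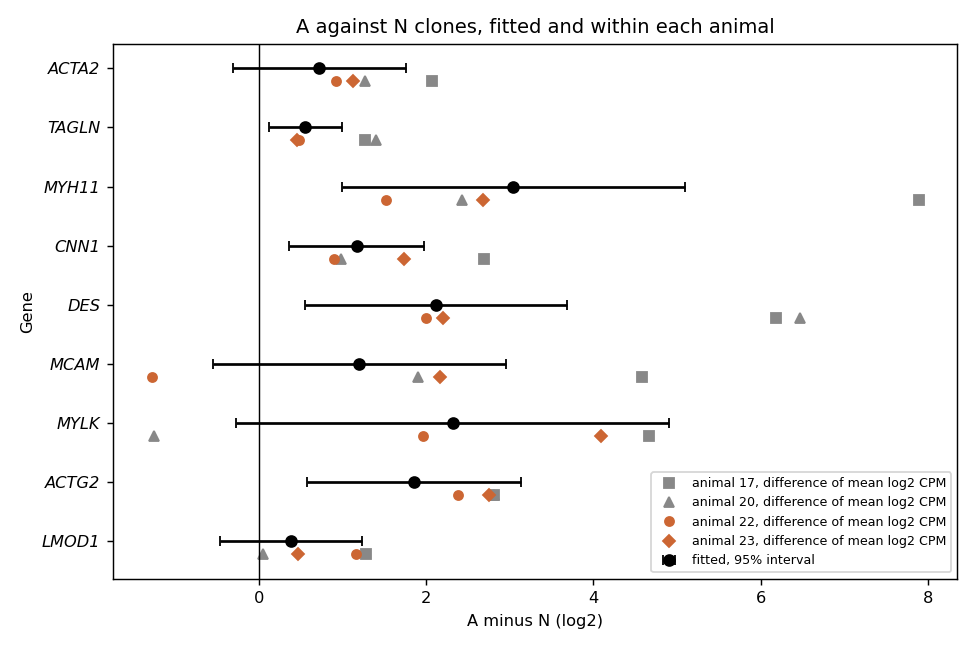
A minus N difference of each tested gene on the log2 scale. Black points are the fitted log2 fold changes with 95% intervals, and symbols beneath are differences of mean log2 CPM within each animal, grey for animals 17 and 20 with 1 clone of each kind and orange for animals 22 and 23 with 4 of each. All 9 fitted values are above 0, and 7 genes are above 0 in all 4 animals, with MCAM below 0 in animal 22 and MYLK in animal 20.

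The animals were next compared. Of the 9 tested genes, 7 had a higher mean log2 CPM in A than in N clones in each of the 4 animals, all but MCAM and MYLK. The share of all genes tested with this pattern was not computed. In MCAM the difference of means was -1.28 in animal 22 and 2.17 in animal 23, and in MYLK it was -1.25 in animal 20 and 4.09 in animal 23. Fitted on animal 23 alone (4 clones of each kind), CNN1 (log2 1.71, adjusted p = 0.0286) and MYLK (log2 4.76, adjusted p = 0.0416) passed, whereas on animal 22 alone no member passed at either an adjusted or an unadjusted p of 0.05. MYH11 and MCAM did not pass the filter on low counts in animal 23 alone and were not tested there. Over all genes, 6.22% passed the adjusted p in animal 23 alone and 1.15% in animal 22 alone. On animal 22 alone the fitted difference of ACTA2 was -0.03, although its mean log2 CPM was higher in A by 0.93. That mean includes N clone 22-5 at 99.4 CPM. The other N clones of animal 22 had 1002 to 5621 CPM, which spans its A clones (1267 to 4215 CPM). For LMOD1, 22-5 had 2.15 CPM, the other N clones 37.9 to 133 CPM and the A clones 64.8 to 98.2 CPM. Differences of means in animal 22 were not computed without 22-5.

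Whether the A to N difference itself differed between animals 22 and 23 was tested on their 16 clones. No member passed an adjusted p of 0.05 for this interaction, and 0.031% of the 12915 genes fitted did. At an unadjusted p of 0.05, 2 members passed, where 9.06% of all genes did. MCAM had an interaction of 4.42 ± 1.36 (SE, log2, edgeR's quasi-likelihood test across all genes, adjusted p = 0.366) and MYLK one of 4.66 ± 2.04 (adjusted p = 0.530). DESeq2 called no member either.

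A few clones stood at the ends of the range for many of the genes. A clone 17-57 was the highest A clone for 6 of the 10 genes (TAGLN, MYH11, CNN1, MCAM, ACTG2 and LMOD1), and its median rank over the genes was 1 of 20. A clone 23-108 was highest among A for ACTA2, DES and MYLK. Among N clones, 22-18 was highest for 5 genes and 22-17 for 4, and 22-5 was the lowest of all 20 clones for 6 genes and tied with 23-10 at 0 counts for MYH11. The summed level of the 10 genes ran from 1094 CPM in 22-5 to 12244 CPM in 22-18 among N clones, and from 5521 CPM in 22-121 to 15681 CPM in 23-108 among A clones. The largest libraries, 22-18 and 23-108, thus also had the highest sums of their group, and the part of library size in this was not tested.

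**Figure D3:**
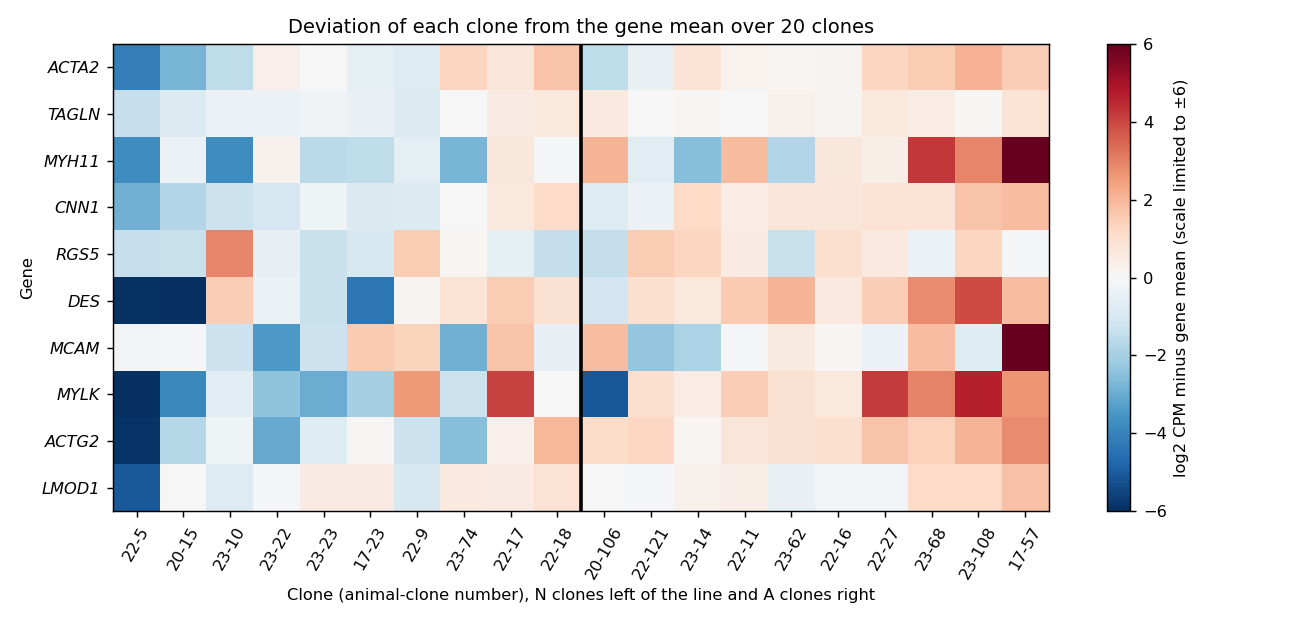
Each cell is a clone's log2 CPM minus the gene's mean over the 20 clones (colour, limited to ±6), with genes as rows and clones as columns. N clones are left of the black line and A clones right, each ordered by median rank over the 10 genes from low to high. Clone 22-5 is blue in most rows and 17-57 red in most, and the RGS5 row follows neither.

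The spread within groups was also compared. For 8 of the 10 genes the SD of log2 CPM was larger in N than in A clones, MYH11 and MCAM being the exceptions, where 61.9% of all genes tested were more variable in N. Without clone 22-5 it was 6 of 10 members and 56.0% of genes, and without 22-5 and 20-15 it was 5 of 10 members and 51.1% of genes. With all clones kept, ACTG2 had an SD of 2.17 in N and 0.75 in A clones on the log2 scale.

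Most of the genes followed ACTA2 across clones. Over the 20 clones, Pearson's r of log2 CPM with ACTA2 was 0.912 for CNN1 (Spearman's rho 0.862, both permutation p = 1e-05, the smallest that 100000 resamples can give). It was 0.801 for DES, 0.784 for LMOD1, 0.762 for MYLK, 0.760 for TAGLN, 0.660 for ACTG2 and 0.493 for MYH11. These 7 of 9 relations passed a Benjamini-Hochberg adjusted permutation p of 0.05, the largest being 0.0361 for MYH11 (raw p = 0.0280, rho 0.484). An r with ACTA2 of at least the 0.493 of MYH11 was found for 8.33% of the other 12899 genes tested, and none of them exceeded the r of CNN1. By Spearman's rho, IDH3A (0.893), ACTN1 (0.884) and MYADM (0.868) did exceed CNN1. For RGS5 r was 0.179 (rho 0.161, adjusted permutation p = 0.508) and for MCAM 0.0529 (rho -0.0872, adjusted permutation p = 0.816).

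Without the 2 clones farthest from the ACTA2 median, 22-5 and 20-15, r was 0.837 for CNN1, 0.711 for LMOD1, 0.583 for MYLK, 0.554 for DES, 0.508 for TAGLN, 0.429 for MYH11 and 0.318 for ACTG2. For ACTG2 the relation over all clones was thus much weaker without that pair. After centring on each animal 7 relations still passed, and r for ACTG2 was 0.769, or 0.642 without the 2 clones then farthest out, 22-5 and 23-10. These permutations exchanged the centred values across animals and so did not allow for the centring. The A to N difference also remained in the centred values. Within the A clones alone 3 passed by Pearson's r (CNN1, DES and MYLK) and within the N clones alone 4 (CNN1, TAGLN, LMOD1 and DES). By Spearman's rho DES passed in neither group (adjusted permutation p = 0.0804 in A and 0.165 in N). Its r in N clones was 0.756, and 0.261 without 22-5 and 20-15. Among all 45 pairs of the 10 genes, 40 (88.9%) had a rho above 0 with a median of 0.499, where 49.9% of all pairs of genes tested had one above 0, and without RGS5 it was 35 of 36 pairs. The highest rho between 2 members was that of ACTA2 and CNN1, followed by DES and MYLK at 0.838. Clones of 1 animal share a donor, and a common depth and normalization enter every value.

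**Figure D4:**
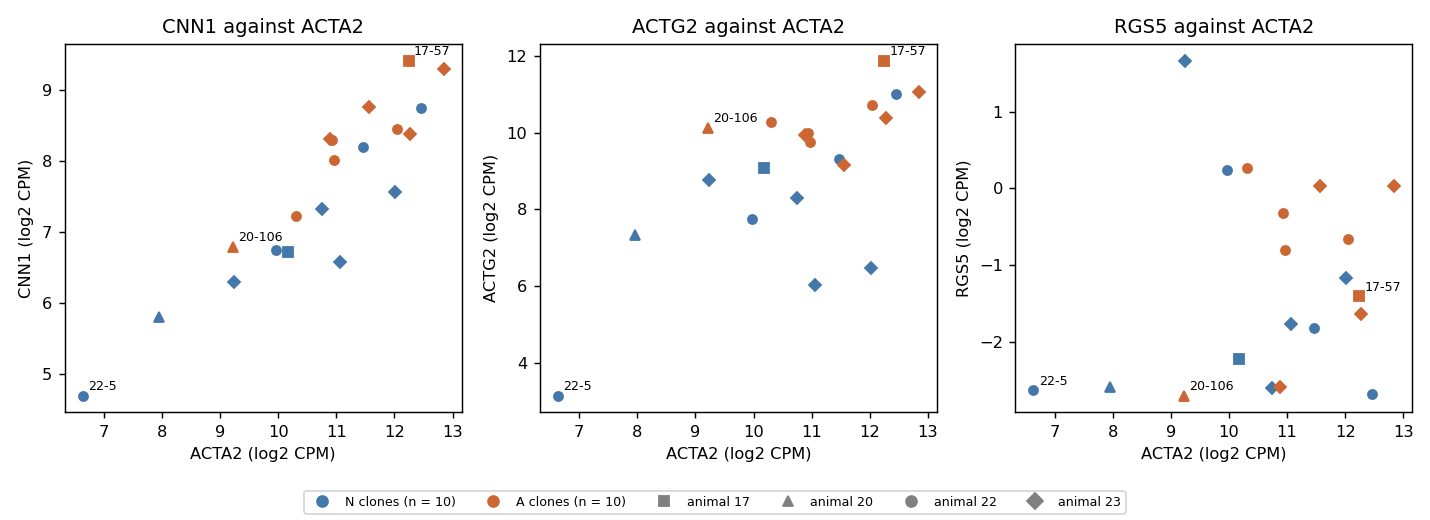
Levels of CNN1, ACTG2 and RGS5 (y axes, log2 CPM) against ACTA2 (x axis, log2 CPM) in 10 N clones (blue) and 10 A clones (orange), with symbols for animals and 3 clones labelled. CNN1 follows ACTA2 (r = 0.912), ACTG2 less closely (r = 0.660) and RGS5 hardly (r = 0.179).

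Outside the 10 genes, the 3 tested genes with the clone pattern most like that of ACTA2 by Spearman's rho over 20 clones were IDH3A (0.893), ACTN1 (0.884) and MYADM (0.868). ACTN1 encodes alpha-actinin, an actin crosslinker. For CNN1 they were SLC30A4 (0.913), TRIM2 (0.904) and LOC112448271 (0.902). For MYH11 they included IDH1 (0.839) and C21H14orf28 (0.809). For RGS5 (ARSA 0.716, RRAGD 0.692 and RALGAPA2 0.687) the closest patterns were less alike, and for MCAM they were LOC786332 (0.818), PTH2R (0.788) and ZNF420 (0.765).

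The balance of the 2 actins differed between the groups. ACTG2 counts per ACTA2 count ran from 0.0213 to 0.723 with a median of 0.221 in N clones, and from 0.190 to 1.89 with a median of 0.478 in A clones. A clone 20-106 had more ACTG2 than ACTA2 counts. The mean log2 ratio was 1.46 higher in A (-2.45 ± 1.75 in N and -0.99 ± 0.97 in A, SD, n = 10 each), with a two-sided exact permutation p of 0.0110 over all 19600 exchanges of clones within animals. It was higher in A within each animal, by 0.74, 1.54, 1.46 and 1.63 in animals 17, 20, 22 and 23. This comparison was chosen after the values were seen, and the ratio does not show which of the genes changed.

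The regulators of the programme were then examined. MYOCD, the cofactor of SRF named above, was found at a low level in every A clone and hardly in N clones. The A clones had between 14 and 208 counts, from 0.513 CPM in 23-108 to 13.0 CPM in 22-16. Of the N clones 6 had no count, 3 had 1 to 3 counts, and 22-18 had 14 counts (0.356 CPM). By CPM, all 10 A clones were above every N clone, which held for 0.192% of the 23383 genes with a count (0.225% of the genes that passed the filter). A clone 23-108 and N clone 22-18 both had 14 counts, so their order rests on the library scaling. The means were 0.0708 ± 0.118 CPM in N and 3.83 ± 3.74 CPM in A (SD, n = 10 each). MYOCD did not pass the filter on low counts. Fitted without it, the log2 fold change was 5.53 ± 0.68 (edgeR's quasi-likelihood test, adjusted p = 0.000227 over 23383 genes). Over the 17 alternatives that could fit it the value was 5.12 to 6.44, and the call was lost with counts summed per animal, in animal 22 alone and without animal 23. MYOCD entered 11 of the 20 fits that left out 1 clone, and entry under the filter rested on its level in A clones. The range thus does not show how the value depends on each A clone. A clone 23-108, the highest in ACTA2, DES and MYLK, had the lowest MYOCD of the A clones.

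Of 24 regulators tested, 4 rose (16.7%) and 6 fell (25.0%) in A clones, against 10.3% in each direction over all genes. Their median log2 fold change was -0.23, against -0.01 for all genes. All regulators that rose and only some of those that fell are named here. SRF itself was 53.2 ± 5.95 CPM in N and 68.9 ± 23.5 CPM in A (SD, n = 10 each), a log2 difference of 0.36 (adjusted p = 0.144). The Notch receptor NOTCH3 (log2 2.99, adjusted p = 0.00521), the Notch ligand JAG1 (1.90, 0.0135), the TGF-beta receptor TGFBR1 (0.77, 0.00410) and the transcription factor TCF21 (2.43, 0.00563) rose. SMAD3, which carries TGF-beta signals to the nucleus, fell to 0.499-fold (adjusted p = 0.00134), KLF4, a repressor of smooth muscle genes, fell by 0.82 on the log2 scale (adjusted p = 0.0171), and MKL1, an SRF cofactor, fell by 0.29 (adjusted p = 0.0367). The MKL1 call was lost in 9 of 20 fits that left out 1 clone (N clones 20-15 and 23-23 and A clones 20-106, 22-11, 22-16, 22-27, 22-121, 23-14 and 23-68) and, at an adjusted p of 0.0550, without the filter. The other cofactor MKL2 was lower in A by a log2 difference of -0.24 (adjusted p = 0.199). In animal 17 the difference of mean log2 CPM went the other way for JAG1 (-0.85) and MKL1 (0.18).

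Of 38 other genes of the contractile apparatus tested, 4 rose (10.5%) and 2 fell (5.26%), against 10.3% in each direction over all genes, and the median log2 fold change was 0.21. Tropomyosin TPM1 (log2 0.81, adjusted p = 0.0105), vinculin VCL (0.81, 0.0128) and the LIM protein CSRP1 (0.81, 0.00403) rose. The non-muscle calponin CNN3 fell by 0.61 (adjusted p = 0.0102) and the non-muscle myosin heavy chain MYH10 fell by 1.29 (adjusted p = 0.00340), opposite in sign to CNN1 and MYH11. In animal 20 the MYH10 difference of mean log2 CPM was 0.22. MYL9 (0.31, adjusted p = 0.263), TPM2 (0.56, 0.179), CALD1 (0.14, 0.672) and SMTN (-0.36, 0.255) did not pass.

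Among the other actins, the cytoplasmic ACTB differed by 0.02 (log2, adjusted p = 0.912) and ACTG1 by 0.17 (adjusted p = 0.381). The cardiac actin ACTC1 fell by 2.29 (adjusted p = 0.00615), with 19.8 ± 15.2 CPM in N and 3.63 ± 2.23 CPM in A (SD, n = 10 each). Actins are close in sequence, and uniquely mapped reads were counted, so their levels depend on the reads that tell them apart. In the RefSeq annotation 2 loci overlap ACTG2, LOC101909718, with 1270 counts over all clones, and LOC132346547.

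Of 16 other pericyte and mural cell markers tested, 7 rose (43.8%) and 1 fell (6.25%) in A clones, against 10.3% in each direction over all genes. Their median log2 fold change was 1.40. The 7 and the median include ANPEP (CD13), which the study chose on these clones, so its rise was known beforehand. CSPG4, the NG2 proteoglycan of pericytes, ran from 2.71 to 209.9 CPM in N and from 129 to 880.2 CPM in A, where 8 A clones were above every N clone (log2 1.76 ± 0.45, adjusted p = 0.0134). NOTCH3 was counted in this list too. The endothelin receptor EDNRB (log2 3.60, adjusted p = 0.0112) and ANPEP (log2 6.01, adjusted p = 0.00374) rose as well, and RGS4, a relative of RGS5, fell by 1.68 (adjusted p = 0.00291). In animal 20 the EDNRB difference of mean log2 CPM was -0.40. The general mural and stromal receptor PDGFRB did not pass, with 320.1 ± 139.6 CPM in N and 406 ± 179.9 CPM in A (log2 0.32, adjusted p = 0.462). ABCC9 and KCNJ8, subunits of a potassium channel of pericytes, gave a log2 difference of -0.01 (adjusted p = 0.995) and at most 5 counts per clone. HIGD1B, AVPR1A and VTN had no count in any clone.

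**Figure D5:**
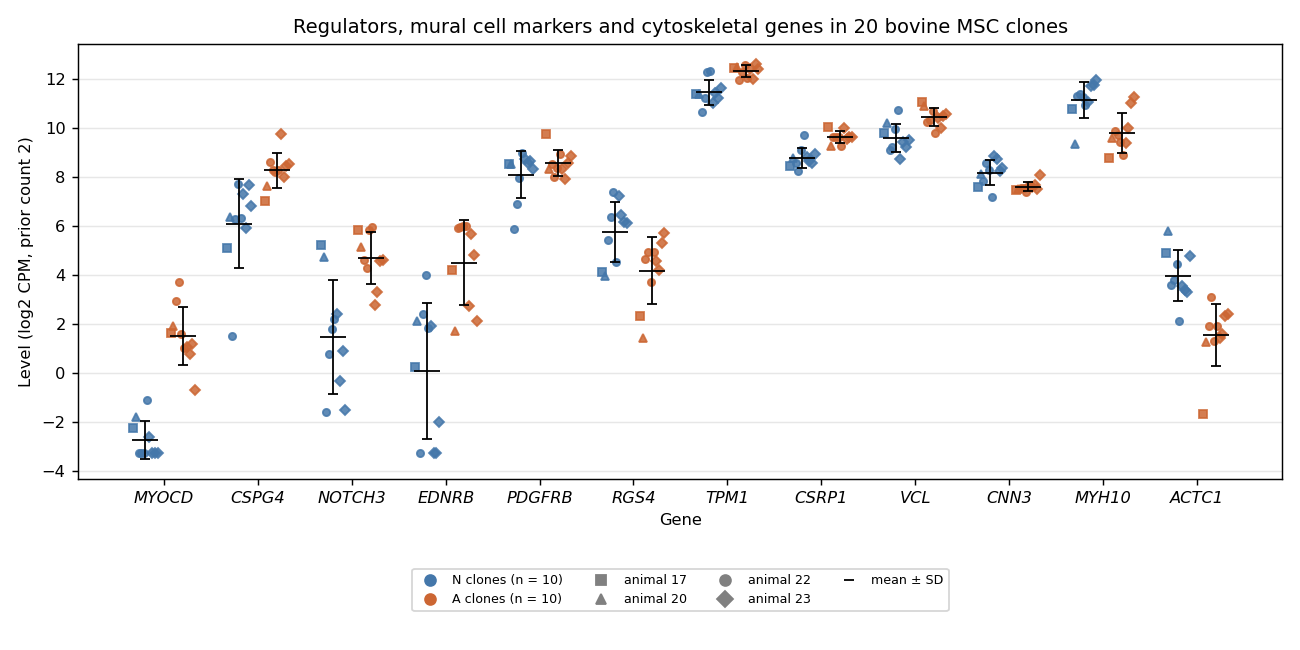
Levels of 12 related genes (y axis, log2 CPM with a prior count of 2) in 10 N clones (blue) and 10 A clones (orange), with the animal given by the symbol and the mean ± SD as black bars. MYOCD separates the groups by CPM, although A clone 23-108 and N clone 22-18 have the same 14 counts. CSPG4, NOTCH3 and EDNRB are higher in A, and RGS4, CNN3, MYH10 and ACTC1 are lower in A. Heights are comparable within a gene only.

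Genes of neighbouring cell types were checked beside these results. The 9 MSC and fibroblast markers summed to between 5259 and 12679 CPM in N clones and between 9649 and 14218 CPM in A clones, and 1 of 9 (11.1%), COL3A1, rose (log2 0.93, adjusted p = 0.0126). Its difference of mean log2 CPM was -0.35 in animal 17 and -0.06 in animal 20, and above 0 in animals 22 and 23. PDGFRA, a stromal receptor, had at least 531 counts in every clone. Of 15 myofibroblast genes tested 3 rose (20.0%), among them SPARC (log2 0.49, adjusted p = 0.0128), and none fell. Over all genes 10.3% rose and 10.3% fell. The striated muscle regulator MYOD1 had no count in any clone, and of 5 striated muscle genes tested NEB rose (1.97, adjusted p = 0.0114) and 3 fell. The endothelial cadherin CDH5 had at most 5 counts and the leukocyte gene PTPRC at most 7 counts in any clone. Endothelial markers summed to 1.47 to 54.8 CPM in N and 9.65 to 105.9 CPM in A, where 1 of 5 tested (20.0%), ERG, rose (log2 2.51, adjusted p = 0.0323). Macrophage markers summed to 0.885 to 10.9 CPM in N and 2.82 to 12.6 CPM in A, where CD68, the only 1 tested, rose (1.06, adjusted p = 0.0157). Mesothelial markers ran from 8.82 to 9198 CPM in N and from 7.73 to 1095 CPM in A, and of 6 tested 1 (16.7%), MSLN, fell by 1.97 (adjusted p = 0.0393). The call of ERG was lost without N clone 22-9, 22-17 or 23-10 or A clone 23-14, that of MSLN in 12 of the 20 fits that left out 1 clone (N clones 22-5, 22-9, 23-10, 23-22, 23-23 and 23-74 and A clones 22-16, 22-27, 22-121, 23-14, 23-68 and 23-108), and both without the filter (adjusted p = 0.0522 and 0.0610). The part of other cell types in the members' levels was not tested.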

How the data were processed

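RNA-seq of 20 bovine MSC clones (10 A, 10 N, from 4 animals) was analysed as deposited. The authors made directional libraries (NEBNext Ultra II), demultiplexed with bcl2fastq 2.20, trimmed with Trimmomatic 0.36, aligned with STAR 2.5.2b to ARS-UCD1.2 and deposited raw counts of uniquely mapped exon reads from featureCounts (Subread 1.5.2). The strand setting is not given in the sources used here, so reads of overlapping genes may not be separated. The row without a gene name held 0.113 to 0.333% of counts and was left out.

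Groups came from the sample labels. Counts were scaled by TMM and tested with edgeR 4.0.16 (filterByExpr on condition, robust quasi-likelihood F test, animal as block) in R 4.3.3, with Benjamini-Hochberg adjustment over all genes tested and a threshold of 0.05. The SE was the log2 fold change divided by the square root of F, and 95% intervals are ±1.96 SE. CPM are TMM-scaled, with 2 added as prior count before logs. Same-animal clones deviated together from their group means (r = 0.253, 0.193, 0.241 and 0.440 in animals 17, 20, 22 and 23). No pair of clones was a duplicate (highest r 0.989). Correlations used 100000 permutations (Python 3.11.15). Intervals and the floor of 3 counts cover counting error or the spread of these clones only. The scripts were tested on simulated data. Alternatives were DESeq2 1.42.0, limma-voom (limma 3.58.1), other scalings and filters, thinning, and leaving out clones or animals. The ACTG2 to ACTA2 ratio and the fits without pairs of clones were added after the values were seen.

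Members and gene lists were chosen with earlier results of these data known. Named outside the members are up to 5 genes per list with the smallest adjusted p past 0.05, a fixed set of reference genes, and the 3 nearest genes by rho. A few genes that this rule names are not reported here. Overlapping genes were read from RefSeq by symbol. Reference sequences of promoters and proteins were not used here.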

Additional observations from a re-analysis of the deposited data

Results flagged for a closer look

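In 108 gene and group combinations (the members and named companion genes in the 10 A or 10 N clones), 1 clone stood apart from the other 9 in 14. Chance flags about 1 in 20 groups, a rate that does not apply to groups with most clones at or near 0 counts, such as PTPRC and TNNT3 here. The measure is the gap to the nearest clone over the group's range of log2 CPM, held against Dixon's critical value for 10 clones. Of the 20 combinations of members, 3 stood apart. MCAM in A clone 17-57 was 80.4 CPM against at most 3.97 in the other A clones (gap 0.508). MYLK in A clone 20-106 was 2.26 CPM against at least 112 (0.572). LMOD1 in N clone 22-5 was 2.15 CPM against at least 37.9 (0.693).

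Among the other genes, N clone 22-5 was lowest for CSPG4 (2.71 CPM, gap 0.583). A clone 17-57 was lowest of the A clones for ACTC1 (0.204 CPM, 0.617) and highest for NEB (8.11 CPM, 0.482). N clone 20-15 was highest for PECAM1 (7.18 CPM, 0.497) and lowest for MYH10 (664 CPM, 0.537). A clone 23-108 was highest for CNN3 (269 CPM, 0.585), 20-106 for SMAD3 (166 CPM, 0.514) and 23-14 for ANPEP (548 CPM, 0.484), and 23-14 was lowest for TNNT3 (0 CPM, 0.572). PTPRC was counted in 1 clone of each group, so its gap is 1 by construction: N clone 20-15 (0.0614 CPM, gap 1) and A clone 22-11 (0.253 CPM, gap 1).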

How the results depend on the processing

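Of the members, 1 was called, and the fit without the animal block also gave 1. The count was 3 with upper-quartile normalization, 2 with at least 10 counts in every clone, 5 with DESeq2, 6 with limma-voom, 2 without robust dispersion, 2 after thinning to the smallest total, 2 in animal 23 alone, 6 without animal 22 and 3 without clones 22-18 and 23-108. It was 0 without the filter, with counts summed per animal, without animal 17, without animal 20, in animal 22 alone and without animal 23, where 5, 5, 4, 4, 0 and 0 members passed an unadjusted p of 0.05. Of all genes tested, 11.8, 0, 18.2, 18.9, 1.15 and 0.245% were called in these fits, in the same order. Leaving out 1 clone gave 0 to 4 members. Over all genes tested, the share called was 20.6%, and 16.8% without the animal block. It was 20.3% with upper-quartile normalization, 21.1% with at least 10 counts in every clone, 24.2% with DESeq2 and 21.2% with limma-voom. It was 20.8% without robust dispersion, 20.4% after thinning, 6.22% in animal 23 alone, 11.5% without animal 22 and 23% without clones 22-18 and 23-108. The cause of these shifts was not tested. The adjusted p of MYH11 ran from 0.00818 to 0.515 over all alternatives. Of the companion genes 34 were called (24 without the animal block), 20 with at least 10 counts in every clone, 0 with summed counts, 6 in animal 22 alone, 14 in animal 23 alone and 0 without animal 23, where 32 of 13071 genes were called at all, and 28 to 41 when 1 clone was left out. DESeq2 called 49. By Pearson's r, the members following ACTA2 numbered 7 over all clones, 3 in A clones alone and 4 in N clones alone. The log2 difference reversed for ACTA2 in animal 22 alone (-0.029), MCAM in animal 22 alone (-1.43) and without animal 23 (-0.094), and PDGFRB in animal 23 alone (-0.11). Depth bears most on RGS5, which had 1 to 52 counts per clone.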
